A study of Mus musculus with 6 samples.

Results

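Transcripts of 8 transporters linked to mitochondrial iron supply and to heme in erythroid cells were read out in circulating red cells. The genes were Slc25a37, Slc25a38, Slc25a39, Tmem14c, Abcb10, Abcb6, Abcg2 and Flvcr1, chosen by name, and all 8 were found among the 27179 genes counted. The cells came from 6 individual BalB/c mice. Mutants (3 males) were heterozygous for a missense allele of the mRNA export receptor Nxf1 (Nxf1+/C587R), and the 3 controls were wild-type littermates (Nxf1+/+), for which the labels state no sex. No treatment, age or further allele is given in the labels. Blood was drawn by cardiac puncture, red cells were pelleted through Ficoll, and polyadenylated RNA was sequenced. The labels give 3 batch numbers, each of them holding a mutant and its wild-type counterpart.

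Heme is built partly in mitochondria and partly in the cytosol, so its raw materials and intermediates have to cross the mitochondrial membranes. Iron and glycine enter the matrix, the first intermediate leaves it, and a late porphyrin returns to receive its iron from ferrochelatase. Reticulocytes, the youngest red cells in blood, still hold mitochondria and messenger RNA and lose both as they mature. Slc25a37 (mitoferrin 1) carries iron across the inner membrane, and Abcb10 is an inner membrane transporter that binds and stabilizes mitoferrin 1. Slc25a38 imports glycine, the substrate of the first enzyme, Alas2. Slc25a39 is needed for import of glutathione into mitochondria. Tmem14c is an inner membrane protein required for the late porphyrin step. Abcb6 is a porphyrin transporter that carries the Langereis blood group, Abcg2 is an exporter of porphyrins and urate that carries the Junior blood group, and Flvcr1 is a plasma membrane transporter described as a heme exporter and as a choline importer.

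Total counts ran from 14636739 to 15790336 per library and globins took 88.1% to 89.3% of them. All 11 erythroid markers matched were present in every library. Per the labels, purity was checked by flow cytometry against platelets, lymphocytes and nucleated cells. Transcripts of other cells were also seen. The 16 hepatocyte markers were all present in each mutant (1668 to 3598 counts summed) and only 1 or 2 of them in each wild-type library (2 to 90 counts). The 90 counts, in wild-type library 1, were all of Ttr. The 12 leukocyte markers summed to 985 to 1723 counts in mutants against 1602 to 1942 in controls, and the 8 platelet markers to 61 to 175 and 155 to 290, with none of them at 0 in any library. The 7 markers of iron-recycling macrophages gave 11 to 25 and 9 to 21 counts, of which Adgre1 and Hmox1 were present in all 6 libraries and C1qa in 5. Cd163 and Vcam1 were at 0 in 4 libraries, Spic in 5 and C1qb in 6. The part of these cells in the results that follow was not tested. In bulk samples such as these, fewer cells of a type and less RNA per cell cannot be told apart. Nxf1 itself had 9, 7 and 11 counts in mutants against 15, 10 and 20 in controls, which does not check the labels, since a missense allele is counted like the wild-type one.

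Promoters of the members were taken from RefSeq (GRCm38.p6), which gave sequences for 7 of the 8 members, all but Slc25a37. The 250 bases before the start site are shown for the most abundant carrier, Slc25a39, and for 2 rare ones that could still be tested, Slc25a38 and Abcb10, because the results below turn on these genes. The Slc25a39 start site in that table lies 1158 bases inside the gene's outermost 5′ end, so its window is within the gene span given below, and the Slc25a38 start site lies 5 bases inside. Capitals mark matches, on either strand, to 5 short motifs of erythroid and general promoters. The GATA box was searched as AGATAA. The GC box, bound by Sp and Klf factors, was searched as GGGCGG. The letters CCACCC stand for the box bound by erythroid Klf factors, here called the Klf box. The letters CCAAT are the box of that name. The TATA box was searched as TATAAA. Marked matches do not overlap one another in these 3 windows.
Slc25a39, chr11:102407518-102407767, minus strand: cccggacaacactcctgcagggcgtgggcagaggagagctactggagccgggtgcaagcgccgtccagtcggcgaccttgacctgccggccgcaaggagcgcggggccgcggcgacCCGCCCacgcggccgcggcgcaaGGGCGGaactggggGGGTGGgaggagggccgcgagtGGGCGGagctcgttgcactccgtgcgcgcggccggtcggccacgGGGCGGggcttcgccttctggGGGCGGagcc
Slc25a38, chr9:120110132-120110381, plus strand: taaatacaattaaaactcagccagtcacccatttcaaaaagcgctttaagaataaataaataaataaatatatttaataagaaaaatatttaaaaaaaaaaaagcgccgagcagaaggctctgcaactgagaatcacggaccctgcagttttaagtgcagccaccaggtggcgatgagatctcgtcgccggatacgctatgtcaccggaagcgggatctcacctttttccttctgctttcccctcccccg
Abcb10, chr8:123983123-123983372, minus strand: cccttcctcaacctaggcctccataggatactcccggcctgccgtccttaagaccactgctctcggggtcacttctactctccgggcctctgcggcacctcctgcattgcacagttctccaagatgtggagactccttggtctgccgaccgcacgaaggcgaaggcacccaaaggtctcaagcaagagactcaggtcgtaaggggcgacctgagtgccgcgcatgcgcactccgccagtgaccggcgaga

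The Slc25a39 window was 77.2% G or C with 35 CpG dinucleotides, and it held 5 GC boxes and 1 Klf box. The Slc25a38 window was 41.6% G or C with 12 CpG dinucleotides, the Abcb10 window 61.6% with 17, and neither held any of the 5 motifs. Over 32851 promoter windows of the same length the medians were 52.4% and 6. A GC box was present in 32.7% of those windows, a CCAAT box in 33.8%, a Klf box in 28.1%, a TATA box in 12.4% and a GATA box in 9.99%. The full GATA box letters AGATAA, on either strand, were in none of the members' windows, including those of Tmem14c, Abcb6, Flvcr1 and the 3 start sites of Abcg2. Shorter forms such as GATA alone were not searched. These matches describe letters in a short window and say nothing of binding.

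The 8 transcripts fell into 2 very abundant ones and 6 rare ones. Levels are compared here per length, as CPM per kilobase (counts scaled to the library total in the usual CPM unit, over the length of the gene model in kilobases). Slc25a39 had 1392 ± 42.3 in mutants against 1492 ± 39.3 in controls (SD, n = 3 each), position 14 among all genes, and Slc25a37 had 52.3 ± 0.673 and 52.7 ± 3.86, position 88. The next was Slc25a38, at position 765, with 0.765 ± 0.540 and 1.96 ± 0.767. Tmem14c, Abcb10, Abcg2, Abcb6 and Flvcr1 followed at positions 1343, 1677, 2824, 4076 and 8336. Slc25a39 and Slc25a37 stood apart from each other and from all others in every library. From Slc25a38 down to Abcb6 the ranges over the 6 libraries overlapped between each gene and the next, so these neighbors were not separated over all libraries together. Within libraries, Slc25a38 was above Tmem14c in 5 of 6, Tmem14c above Abcb10 in 4, Abcb10 above Abcg2 in 6, Abcg2 above Abcb6 in 4 and Abcb6 above Flvcr1 in 6. Of all counts of the 8 genes, Slc25a39 took 91.2% to 92.1% and Slc25a37 7.57% to 8.68%. The other 6 genes together had 39, 49 and 88 counts in mutants against 79, 138 and 154 in controls. As a group the 8 genes made up 2.31% to 2.37% of the non-globin counts in mutants against 2.36% to 2.42% in controls.

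**Figure D1:**
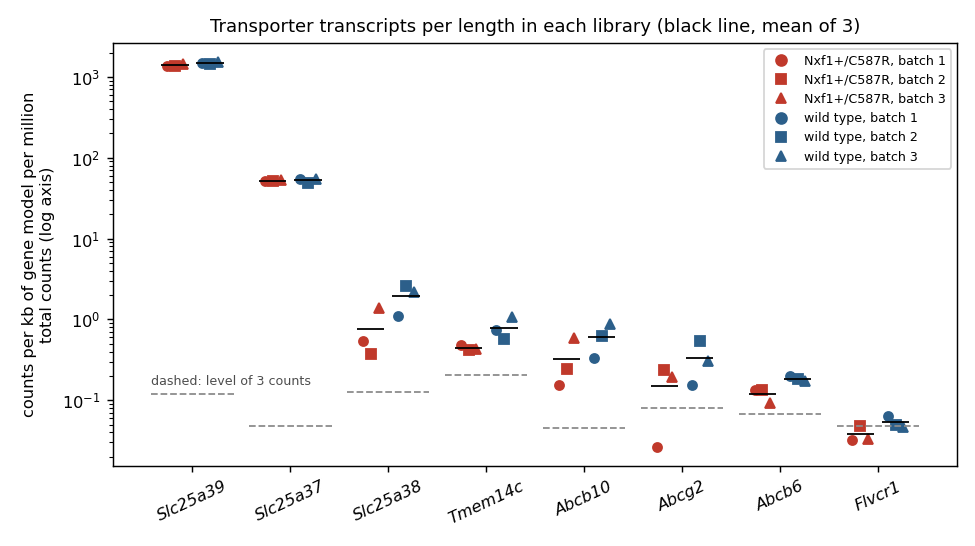
Level of each carrier in each library, as CPM per kilobase of gene model on a log axis, with a black line at the mean of 3 libraries and a dashed line at the level of 3 counts. Slc25a39 and Slc25a37 lie far above the other 6 genes, and Flvcr1 lies around the level of 3 counts.

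None of the carriers passed the test between genotypes that was used across all genes, edgeR's quasi-likelihood test with TMM scaling and a Benjamini-Hochberg adjusted p under 0.05. Of the 8 genes, 4 had enough counts for the filter (Slc25a37, Slc25a38, Slc25a39 and Abcb10) and 0 were called, where 7.05% of the 2823 genes tested were called. By edgeR 3 of the 4 had an unadjusted p under 0.05, against 18.5% of all genes tested. DESeq2 called 0 of the 4 (3 at an unadjusted p under 0.05), against 6.66% of all genes (12.5% unadjusted). The limma-voom fit called 0 as well (2 at an unadjusted p under 0.05), against 6.55% (17.7% unadjusted). With total counts in place of TMM edgeR called 0 of the 4 (1 at an unadjusted p under 0.05), against 12.8% (32.4% unadjusted). With no filter on low counts it called 0 of all 8 (3 at an unadjusted p under 0.05), against 2.83% of 16396 genes (9.01% unadjusted).

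Slc25a39, the glutathione-linked carrier (Entrez gene 68066, chromosome 11, 102402969 to 102408675, minus strand), had 34740, 34880 and 35295 counts in mutants against 38496, 35869 and 40550 in controls. All 3 mutants were below all 3 wild-type libraries in raw counts. As a share of non-globin counts the values were 2.11%, 2.13% and 2.17% against 2.21%, 2.19% and 2.16%, and here the groups overlapped. With TMM scaling the order turned, because the scaling factors of the mutants were lower: Slc25a39 had 2797 ± 467 TMM-scaled CPM in mutants against 2100 ± 83.8 in controls (SD, n = 3 each). The log2 fold change was 0.41 (SE 0.16, 95% interval 0.070 to 0.76) and did not pass (edgeR adjusted p = 0.170). With total counts it was −0.10 (95% interval −0.25 to 0.055, adjusted p = 0.319), while the median of all genes was −0.53 on that scale and −0.057 with TMM.

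Slc25a37, mitoferrin 1 (Entrez gene 67712, chromosome 14, 69241848 to 69285544, minus strand), had 3258, 3318 and 3225 counts in mutants against 3550, 2951 and 3596 in controls. The 3 mutants were close to one another and lay inside the wild-type range. On the TMM scale it had 262 ± 47.5 CPM in mutants against 184 ± 3.41 in controls (SD, n = 3 each), without overlap. Groups that do not overlap in this direction were found in 12.3% of all genes tested. The log2 fold change was 0.51 (SE 0.16, 95% interval 0.17 to 0.85, edgeR adjusted p = 0.0691), and with total counts −0.010 (95% interval −0.25 to 0.23, adjusted p = 0.948). Both abundant carriers passed without mutant library 3, whose scaling factor of 1.06 was the highest of the mutants (0.720 and 0.780 in the others). The log2 fold changes were then 0.73 for Slc25a37 and 0.62 for Slc25a39 (edgeR adjusted p = 0.00218 and 0.00314; 7.72% of genes tested were called). They were 0.74 and 0.62 without batch 3 (adjusted p = 0.0149 and 0.0167; 7.17% called). In both settings edgeR also called Alas2, Fech, Ftl1, Tfr2, Isca1 and the globins Hba-a1, Hba-a2, Hbb-b1 and Hbb-bs higher.

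Slc25a38, the glycine carrier (Entrez gene 208638, chromosome 9, 120110377 to 120126093, plus strand), had 13, 9 and 32 counts in mutants against 27, 60 and 55 in controls. Mutants 1 and 2 were the lowest, and mutant 3 lay above wild-type library 1, so the groups overlapped. The log2 fold change was −0.93 (SE 0.40, 95% interval −1.78 to −0.084, edgeR adjusted p = 0.217). Within batches 1, 2 and 3 the log2 difference of mutant from control was −0.25, −2.27 and −0.46 with TMM, and −1.02, −2.79 and −0.67 with total counts. Without wild-type library 1 the gene passed (log2 −1.23, edgeR adjusted p = 0.0416; 9.19% of genes tested were called), and with total counts and batch as a term, an alternative chosen after seeing the data, it passed as well (−1.42, adjusted p = 0.0156; 17.1% called). Wild-type library 1 was also the library with 210 counts over 8 exocrine pancreas markers, of which the others had at most 1. Whether this has any bearing on Slc25a38 was not tested. Without batch 2 the log2 fold change was −0.32 (adjusted p = 0.803).

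Abcb10, the partner of mitoferrin 1 (Entrez gene 56199, chromosome 8, 123952459 to 123983122, minus strand), had 10, 16 and 37 counts in mutants against 22, 39 and 60 in controls. The groups overlapped, and in each batch the mutant had the lower count. The log2 fold change was −0.47 (SE 0.39, 95% interval −1.31 to 0.38, edgeR adjusted p = 0.614) and −0.90 with total counts (95% interval −1.89 to 0.10, adjusted p = 0.187). Leaving out 1 library moved it from −0.87 (without mutant library 3) to −0.13 (without wild-type library 3), and it was −0.17 without mutant library 1. With wild-type library 1 left out it was −0.78. The interval includes no change as well as a fall, and 3 animals of each genotype do not separate them. By counting error alone, the ratio of summed counts was 0.745 with TMM-scaled totals (95% exact binomial interval 0.541 to 1.02). Per total counts it was 0.532 (0.386 to 0.727). These intervals leave out the spread between animals, where counts ran from 10 to 37 in mutants and from 22 to 60 in controls. An antisense gene, Gm45890, covers 444 bases of Abcb10 exons, and Gm31748 and Gm27223 cover 381 and 92 bases of Slc25a37 exons. The strand setting of the counting is not given, so reads of these genes could be included.

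**Figure D2:**
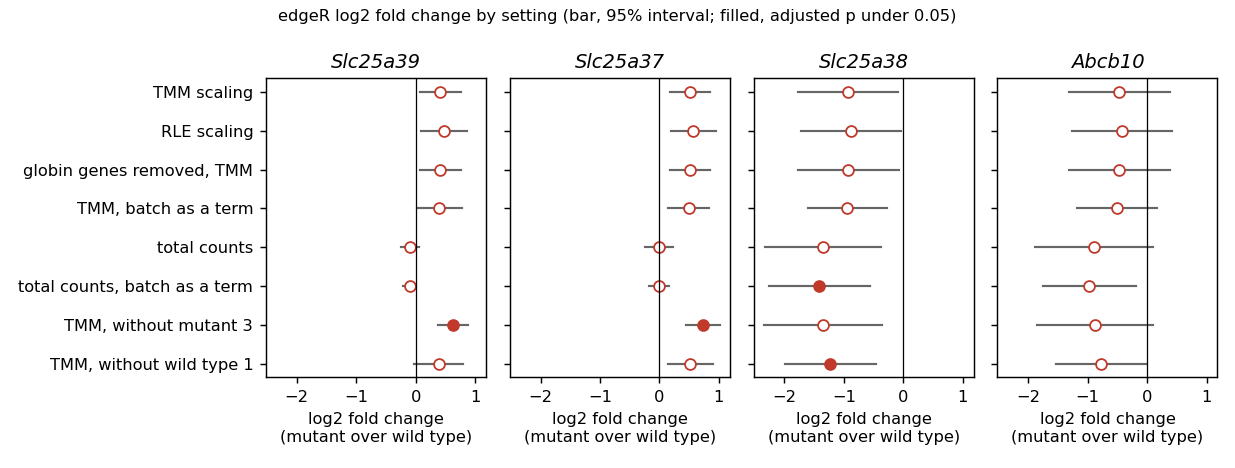
Log2 fold change of the 4 tested carriers, mutant over wild type, in 8 edgeR settings, with 95% intervals and filled points where the adjusted p was under 0.05. Slc25a39 and Slc25a37 move from above 0 with TMM or RLE scaling to near 0 with total counts. The point estimates of Slc25a38 and Abcb10 stay below 0 in these settings. The interval of Abcb10 includes 0 except with total counts and batch as a term, and without wild-type library 1.

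The other 4 carriers were too rare for the filter, and their values are descriptions with no test of their own in the main comparison. Tmem14c, of the late porphyrin step (Entrez gene 66154, chromosome 13, 41016250 to 41022582, plus strand), had 7, 6 and 6 counts in mutants against 11, 8 and 16 in controls. Abcb6 (Entrez gene 74104, chromosome 1, 75171640 to 75180392, minus strand) had 6, 6 and 4 counts against 9, 8 and 8. For both genes every mutant was below every wild-type library in counts and in CPM of total counts. The ratio of the summed counts per total, mutant to wild type, was 0.554 for Tmem14c (95% exact binomial interval 0.299 to 0.996) and 0.653 for Abcb6 (0.326 to 1.27). In log2 these were −0.85 and −0.61, beside a median of −0.53 for all genes tested with total counts. With TMM-scaled totals the ratios were 0.777 (0.420 to 1.40) and 0.916 (0.457 to 1.79), and the groups overlapped. On that scale the log2 ratio of Tmem14c was −0.36, −0.079 without mutant library 3, and −0.11 with wild-type library 3 left out. That of Abcb6 was −0.13, and 0.29 without mutant library 3. These intervals cover counting error only, not the spread between animals. A transcript named Gm29253 on the same strand covers 2932 bases of Abcb6 exons, so the counts of Abcb6 are uncertain.

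Abcg2, the porphyrin and urate exporter (Entrez gene 26357, chromosome 6, 58584491 to 58692451, plus strand), had 1, 9 and 7 counts in mutants against 6, 20 and 12 in controls. The lowest value was that of mutant 1 and the highest that of wild-type library 2, and the groups overlapped. The ratio per total counts was 0.457 (95% exact binomial interval 0.242 to 0.829), and 0.640 (0.339 to 1.16) with TMM-scaled totals. Beside a median log2 fold change of −0.53 for all genes tested with total counts, Abcg2 had −1.13. On the TMM scale its log2 ratio was −0.64, and it was −0.060 without wild-type library 2, −0.18 without mutant library 1, −1.15 without mutant library 2, and −1.01 with wild-type library 1 left out. Flvcr1, described for heme export and choline uptake (Entrez gene 226844, chromosome 1, 191005832 to 191026190, minus strand), had 2, 3 and 2 counts against 4, 3 and 3. That is around the 3 counts that a library with none could hide (0.190 to 0.205 CPM), and a difference was not detectable at this depth. The ratio of summed counts was 0.715 per total counts (95% exact binomial interval 0.231 to 2.08) and 1.00 with TMM-scaled totals (0.324 to 2.92). Its antisense neighbor A230020J21Rik, which covers 809 bases of its exons, had 0 counts in all 6 libraries. In CPM of total counts, 1 of the 4 tested carriers (Slc25a39) had all mutants below all wild-type libraries, and 31.5% of all genes tested did. Tmem14c and Abcb6, which that share does not cover because they did not pass the filter, did so too. On the TMM scale 0 of the 4 tested carriers had all mutants lower (11.1% of all genes tested) and 2 had all mutants higher (12.3%).

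Ratios within a library do not depend on any scaling factor, so each carrier was also set against Alas2, the enzyme that starts erythroid heme synthesis. The ratio depends on its reference instead. With TMM, Alas2 itself had a log2 fold change of 0.41, beside a median of −0.057 for all genes. The ratio therefore does not show which scaling is right. Slc25a39 kept a nearly fixed ratio to Alas2. Its ratio to Fech, chosen after seeing the data, also varied little (coefficient of variation 3.53% over the 6 libraries), so this is not particular to Alas2. There were 88.4, 90.6 and 88.4 counts of Slc25a39 per 1000 counts of Alas2 in mutants against 92.0, 87.1 and 87.8 in controls. The coefficient of variation of this ratio was 2.10% over the 6 libraries. The means were 89.1 ± 1.27 and 89.0 ± 2.66 (SD, n = 3 each; exact permutation p = 1, two-sided). Slc25a37 had 8.33 ± 0.272 and 7.81 ± 0.660 per 1000 (exact permutation p = 0.3, n = 3 each), and its coefficient of variation was 6.59%. For Slc25a39 the means differed by less than the SD of either genotype. For Slc25a37 they differed by more than the mutant SD and less than the wild-type SD, and the groups overlapped. With 3 libraries against 3, the test cannot exclude a difference.

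The ratios of the rare carriers to Alas2 varied more. Slc25a38 had 0.0455 ± 0.0304 counts per 1000 Alas2 counts in mutants against 0.110 ± 0.0414 in controls (exact permutation p = 0.2, n = 3 each), and Abcb10 had 0.0532 ± 0.0351 and 0.0924 ± 0.0387 (exact permutation p = 0.2, n = 3 each). Tmem14c had 0.0161 ± 0.00147 and 0.0268 ± 0.00761, and Abcb6 0.0136 ± 0.00312 and 0.0194 ± 0.00210, in both cases with all mutants below all wild-type libraries (exact permutation p = 0.1, n = 3 each). That p is the smallest this design can give, and 25.4% of all genes tested, a set without these rare carriers, had all mutants lower in this ratio. Abcg2 and Flvcr1 had exact permutation p of 0.4 and 0.3 (n = 3 each). Adjusted over the 8 ratios, no p was below 0.4. The ratio of Slc25a39 to Slc25a37, chosen after seeing the data, was 10707 ± 219 per 1000 in mutants against 11425 ± 668 in controls, and the groups overlapped (exact permutation p = 0.2, n = 3 each).

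**Figure D3:**
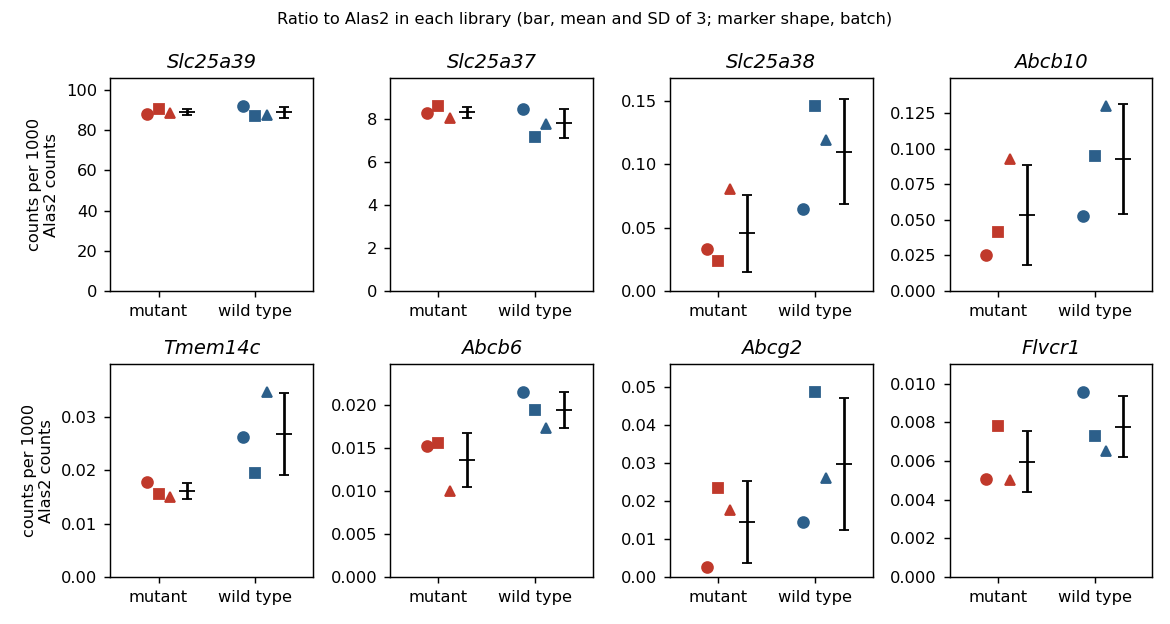
Counts of each carrier per 1000 counts of Alas2 in each library, on axes from 0, with the mean and SD of 3 beside the points and marker shape for the batch. Slc25a39 is level across the 6 libraries, and the mutants are all below wild type for Tmem14c and Abcb6.

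By the fixed rule of likeness, the genes whose TMM-scaled log2 CPM followed Slc25a39 most closely were Pnpla2 (a triglyceride lipase, Pearson r = 0.998), Hba-a2 (alpha globin, r = 0.998) and Marchf2 (a ubiquitin ligase, r = 0.997), over 6 libraries and 385 candidate genes with a mean count of at least 100. Of these candidates 79 had r above 0.9 (median of all, 0.523). On this scale all genes of a library are divided by the same scaling factor, and these factors differ between libraries. With total counts the closest were Pnpla2 (r = 0.984), Ube2o (0.979) and Ube2m (0.979), both of the latter enzymes of ubiquitin or Nedd8 conjugation. With total counts 80 candidates had r above 0.9, and the median of all was 0.794. Pnpla2 was first on both scales.

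The genes around the carriers in the heme and iron pathway were read from lists whose members were tested in the same comparison. Of the 8 heme synthesis enzymes 7 were tested and 0 called by edgeR (3 at an unadjusted p under 0.05), with a median log2 fold change of 0.21 beside −0.057 for all genes. Alas2 had 0.41 (SE 0.17), Fech (ferrochelatase, which inserts the iron) 0.37 (SE 0.16) and Urod, a porphyrinogen decarboxylase, −0.55 (SE 0.21). Their edgeR adjusted p were 0.201, 0.211 and 0.158. Of 13 genes of iron uptake, storage and export 7 were tested and 0 called (3 at an unadjusted p under 0.05), with a median of −0.075. Pcbp2, an iron chaperone, had −0.72 (SE 0.23, edgeR adjusted p = 0.0645) and was called lower with batch as a term, with total counts, with a mean count of at least 50 and without batch 1. Ftl1 and Fth1, the ferritin light and heavy chains, gave log2 differences of 0.46 and −0.067 (SE 0.17 and 0.16, edgeR adjusted p = 0.129 and 0.888). Ncoa4, the ferritin autophagy receptor, had −0.075 (SE 0.19, edgeR adjusted p = 0.893).

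Of 13 iron-sulfur cluster genes 4 were tested and 0 called (1 at an unadjusted p under 0.05), with a median of 0.26. Isca1, Iscu and Hscb, an assembly protein, the scaffold and its co-chaperone, had log2 fold changes of 0.35, 0.16 and 0.0059. Of 14 paralogs and partners of the carriers 3 were tested and 0 called (1 at an unadjusted p under 0.05). Slc48a1, a heme transporter of endosomal membranes, was the most abundant of them, with 7676, 7702 and 8236 counts in mutants against 9630, 9553 and 10566 in controls. Its log2 fold change was 0.20 (SE 0.16, edgeR adjusted p = 0.561), though all mutant counts were the lower ones. Blvrb, biliverdin reductase B, had −0.13 and Fam210b, a mitochondrial protein of erythroid iron handling, −0.45. Slc25a28 (mitoferrin 2), the paralog of Slc25a37, had only 3, 3 and 4 counts against 13, 2 and 5. Slc25a40, the paralog of Slc25a39, had 0, 0 and 2 counts against 2, 0 and 3. The paralogs Tmem14a and Flvcr2 had 0 counts in all 6 libraries. DESeq2 and limma-voom called 0 genes in each of these 4 lists (0 to 3 per list at an unadjusted p under 0.05). With total counts edgeR called Urod, Pcbp2 and Fam210b lower, each the 1 called gene of its list.

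Of 9 other mitochondrial carriers 3 were tested and 0 called by edgeR, DESeq2 or limma-voom (0 at an unadjusted p under 0.05 with each). Slc25a51, a carrier of NAD, was the most abundant of these, with 138, 179 and 184 counts in mutants against 246, 284 and 324 in controls, and a log2 fold change of −0.25 (SE 0.19, edgeR adjusted p = 0.557). With total counts it was called lower. Slc25a3 (phosphate) and Slc25a5 (ADP and ATP) had −0.38 and 0.24. Of 15 mitochondrially encoded genes 14 were tested, and all 14 were called higher in the mutants, with log2 fold changes from 0.76 to 4.32, and 12 of them were called with total counts. The lowest of them was above the highest value of the 4 tested carriers, 0.51. The difference between the 2 sets was not tested.

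**Figure D4:**
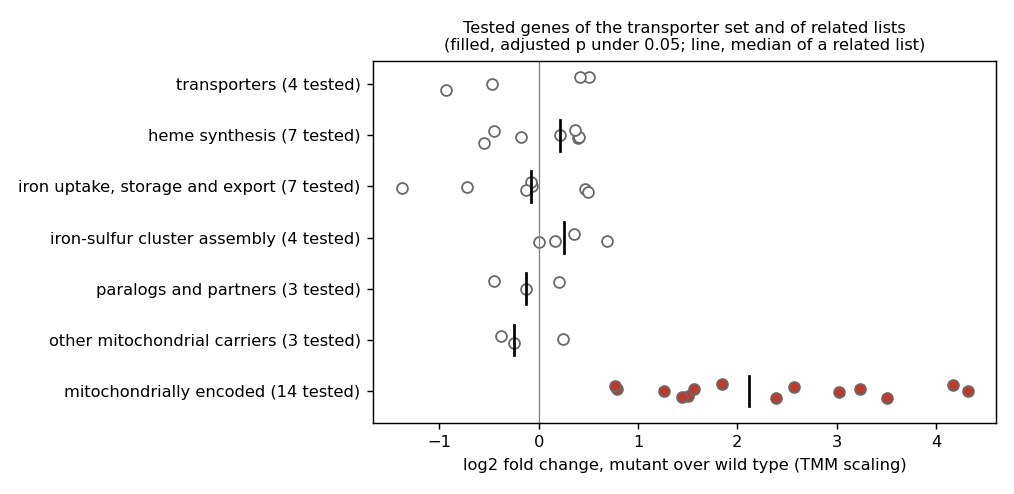
Log2 fold change with TMM scaling, mutant over wild type, of the tested genes among the 8 carriers and in 6 related lists, with filled points for an adjusted p under 0.05 and a line at the median of each related list. None of the 4 tested carriers is filled, and all 14 tested mitochondrially encoded genes are.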

How the data were processed

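Each of 6 libraries (1 animal each) had 1 deposited file of raw counts per gene, whole numbers with a gene length, not normalized, per the file headers. CASAVA 1.8.2, Subread and featureCounts with mm10 are named per the submitters' processing notes. No version of the last 2 programs, annotation or strandedness is stated there. Symbols came from RefSeq (25275 genes) and GENCODE (18), and 1886 genes without one stayed in the tests (1.39% of counts). Positions and promoters are RefSeq GRCm38.p6, the same build; strand and overlapping genes are from GENCODE M21.

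edgeR 4.0.16 (R 4.3.3) was run with TMM factors, filterByExpr, a robust quasi-likelihood F test on genotype and Benjamini-Hochberg adjustment over all genes. SE is the log2 fold change over the square root of F. Alternatives were RLE scaling, total counts, DESeq2 1.42.0, limma-voom (limma 3.58.1), removal of globins, all genes unfiltered, only genes averaging 50 counts or more, batch as a term, and leaving out each library or batch. The main edgeR fit, DESeq2, limma-voom and edgeR with batch as a term were run on simulated counts, and the other alternatives were not. The simulated counts were drawn with TMM-scaled library sizes, so they do not check the choice of scaling. Single ratios used exact two-sided permutation tests (smallest p 0.1 with 3 against 3).

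Batch labels pair the libraries; deviations of same-batch libraries from their group means correlated at −0.116, −0.0855 and −0.0439. The floor is 3 counts per library. Reads had no molecular identifiers, so intervals and floors cover counting error only. The carriers and lists were chosen with earlier results of these data known. Named were the 8 carriers, called genes, the 3 genes with most counts per kilobase of each list, and the 3 genes most like Slc25a39. The mitochondrially encoded genes are given as a range. Pcbp2, Slc25a28, Slc25a40, Tmem14a, Flvcr2, Tfrc, Tfr2, Aco1, Ttr, the globins and macrophage markers were named after their values were seen. The Ahsp marker was not matched.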

Additional observations from a re-analysis of the deposited data

How the results depend on the processing

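The limits are scaling, depth and the spread between animals. TMM and total counts differ by about the size of the changes in Slc25a37 and Slc25a39. Few counts were found for 6 carriers, and each genotype had 3 animals. With total counts, the log2 fold change was −0.010 for Slc25a37, −0.10 for Slc25a39, −0.85 for Tmem14c, −0.61 for Abcb6 and −0.48 for Flvcr1 (the last 3 as ratios of summed counts). With total counts and the replicate block (batch as a term) it was −0.0079 for Slc25a37, −0.10 for Slc25a39 and −1.42 for Slc25a38, and 1 carrier was called. Without batch 3, Slc25a37 had 0.74, Slc25a39 0.62 and Tmem14c 0.17, and 2 carriers were called. Leaving out 1 library gave 0 to 2 called carriers, 0.48 to 0.73 for Slc25a37, −1.36 to −0.61 for Slc25a38, 0.38 to 0.62 for Slc25a39, −0.87 to −0.13 for Abcb10, −0.48 to −0.079 for Tmem14c, −1.15 to −0.060 for Abcg2, −0.26 to 0.29 for Abcb6 and −0.22 to 0.35 for Flvcr1, and −0.013 to 0.027 for the log2 ratio of Slc25a39 to Alas2. Without mutant library 3 the log2 ratio of summed counts was 0.29 for Abcb6 and 0.35 for Flvcr1, against −0.13 and 0.0030 with all libraries.

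Of all genes, 169 were called higher and 30 lower. No filter gave 382 and 82, and a mean count of at least 50 gave 66 and 49. Lower genes numbered 19 with RLE, 245 with total counts (31.9% of calls higher, against 84.9%), 11 with DESeq2, 60 with the replicate block, 361 with the block and total counts, 19 without batch 2 and 3 without batch 3. Leaving out 1 library gave 137 to 244 higher and 8 to 77 lower (8 without mutant library 3, 77 without wild-type library 1, and 11 to 15 without mutant 1, mutant 2 or wild-type 3). With TMM scaling, the replicate block changed no call among the carriers and, in the heme and iron lists, that of Pcbp2 alone. Causes were not tested.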

Other observations

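The transferrin receptor Tfrc, which brings iron into erythroid cells and is lost as reticulocytes mature, had 100, 60 and 246 counts in mutants against 145, 577 and 706 in controls. In raw counts, mutants 1 and 2 were the lowest libraries for Tfrc as they were for Slc25a38 and Abcb10, and wild-type libraries 2 and 3 were the highest for all 3 genes. On the TMM scale that order did not hold: wild-type library 1 was below mutant 1 for Tfrc (7.62 against 9.16 CPM) and below mutant 2 for Abcb10 (1.16 against 1.35 CPM). The log2 fold change of Tfrc was −1.38 (SE 0.79, edgeR adjusted p = 0.481), and the groups overlapped. Tfr2, the second transferrin receptor, had 10, 13 and 6 counts in mutants against 1, 1 and 6 in controls, too few for the filter. Aco1, the iron regulatory protein also known as cytosolic aconitase, had 7, 12 and 6 counts against 6, 0 and 2. With no filter on low counts, edgeR called Tfr2 and Aco1 higher in the mutants, among 382 genes called higher of 16396. These calls rest on few counts. Hepatocyte markers were higher in the mutants too (1668 to 3598 counts summed, against 2 to 90, the 90 being of Ttr alone). The part of hepatocyte transcripts in these calls was not tested.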
